A study of Rattus norvegicus with 6 samples.

Results

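The 10 genes described here are the core of antigen processing for major histocompatibility complex (MHC) class I, and they were chosen by symbol from the gene lists of the deposited matrices. They are B2m, Tap1, Tap2, Tapbp, Psmb8, Psmb9, Psmb10, Psme1, Psme2 and Nlrc5, out of 25399 listed genes, of which 19068 were detected in the kept cells. Each symbol was paired with a single Ensembl identifier. The study compared pontine infarction, a stroke of the ventral brainstem, with sham treatment in Sprague Dawley rats, using droplet-based single-cell RNA sequencing of the 3′ ends of transcripts (10x Genomics). The labels give brain as the tissue and postnatal day 21 as the age of all 6 samples, and they place 3 libraries in the pontine infarction group and 3 in the sham group. The treatment label speaks of 3 infarcted rats. The labels give neither the time from infarction to sampling nor a statement that the libraries came from separate animals, so the p-values below measure the spread between these libraries.

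Every nucleated cell can show peptides from its own proteins on MHC class I molecules. The proteasome cuts proteins into peptides, and under interferon its 3 constitutive catalytic subunits (Psmb5, Psmb6 and Psmb7) can be replaced by Psmb8, Psmb9 and Psmb10, which gives the immunoproteasome. Psme1 and Psme2 form the PA28 activator that caps it. Tap1 and Tap2 form the transporter that carries peptides into the endoplasmic reticulum, Tapbp (tapasin) bridges the transporter to the waiting class I molecule, and B2m is the light chain of that molecule, whose heavy chains in the rat are encoded by RT1 genes. Nlrc5 is a transcriptional activator of class I genes. Neurons and glia of the healthy brain are known for low class I expression, and microglia and vessel cells for higher levels.

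The members share a promoter feature. RefSeq's promoter table for the GRCr8 assembly, with 250 bases before and 50 after each gene start, held 9 of the 10 members, all but Nlrc5. The letters GAAA, then 2 bases of any kind, then GAAA again, a form of the element bound by interferon regulatory factors, were searched on both strands and were present in 7 of these 9 promoters (77.8%), against 1312 of all 33469 promoters (3.92%). The stretches below are shown because they carry this match, which is in capitals; each reads 5′ to 3′ on the strand of its gene, and a capital stretch that begins with TTTC is a match on the other strand.
B2m, chr3:129549155-129549214, plus strand: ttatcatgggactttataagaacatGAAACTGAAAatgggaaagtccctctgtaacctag
Psme2, chr15:33052770-33052829, minus strand: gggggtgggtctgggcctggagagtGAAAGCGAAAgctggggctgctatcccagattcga
Psmb10, chr19:50743275-50743390, minus strand: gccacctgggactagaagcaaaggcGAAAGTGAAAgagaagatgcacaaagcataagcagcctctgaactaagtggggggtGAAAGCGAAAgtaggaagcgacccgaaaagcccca
Tap2, chr20:4652303-4652362, minus strand: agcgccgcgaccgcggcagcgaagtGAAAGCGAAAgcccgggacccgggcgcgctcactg
Psmb8, chr20:4657012-4657060, minus strand: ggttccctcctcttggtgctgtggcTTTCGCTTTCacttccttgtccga
Tap1, chr20:4668630-4668689, minus strand: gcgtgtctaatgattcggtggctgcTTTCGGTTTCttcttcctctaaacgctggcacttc
Tapbp, chr20:4967863-4967928, minus strand: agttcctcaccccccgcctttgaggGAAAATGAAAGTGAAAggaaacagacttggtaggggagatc

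Psmb10 held a pair of separate matches, which began 73 and 17 bases before the gene start, and Tapbp held a pair that overlap each other, 26 and 20 bases before it. The matches of the other genes began 150 bases before the start in B2m, 121 in Tap1, 53 in Psme2, 41 in Tap2 and 4 in Psmb8. The windows of Psmb9 and Psme1 held no match, which says only that these letters are not there. None of the 3 constitutive catalytic subunits held one, nor did any of the 7 promoters of endoplasmic reticulum loading and trimming genes in the table. Among other subunits of the 20S core the count was 2 of 9 (22.2%), and among class I heavy chains 3 of 18 (16.7%). The other motifs searched were spread differently. TTCNNNGAA, a form of the element bound by STAT factors, was in 1 of 9 (11.1%), that of Psmb8, against 8.87% of all promoters, and CCAAT was in 3 of 9 (33.3%), those of B2m, Psmb8 and Psmb9, against 37.5%. No match of one motif overlapped a match of another in the members. A match is a description of the letters and not evidence of binding.

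Position is shared as well. Tap2, Psmb8, Tap1 and Psmb9 were consecutive protein-coding genes on chromosome 20 in the same annotation, between RT1-DOb and RT1-DMb of the MHC, and Tapbp lay on the same chromosome. Psme1 and Psme2 lay on chromosome 15 with only Emc9 between them. Psmb10 and Nlrc5 were on chromosome 19 and B2m on chromosome 3.

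The 6 matrices held 44011 barcodes, of which 37853 were kept, 19069 from infarction libraries and 18784 from sham libraries. Kept UMIs per library ranged from 60996585 to 62559967 in infarction and from 50976410 to 62875211 in sham, and median UMIs per cell from 7774 to 9562 in infarction and from 7286.5 to 7717 in sham. Over all kept cells of a library the median mitochondrial share per cell was 5.59% to 7.81% in infarction and 9.66% to 10.2% in sham. A total of 226 barcodes occurred in 2 libraries and 0 in 3 or more. Clustering gave 29 clusters, 24 of which could be named from markers as X-like and 5 of which stayed unnamed. The cell mix differed widely: macrophage-like cells numbered 1367, 2084 and 2168 in infarction and 0 in sham, neutrophil-like cells 2073, 1408 and 989 in infarction against 13, 44 and 12 in sham, and smooth muscle-like cells 1 in all infarction libraries against 2419, 1974 and 2418 in sham. The microglia-like and smooth muscle-like cells of sham 3 mostly fell in other clusters than those of sham 1 and 2. Only 4 classes had at least 20 cells in every library and could be tested: microglia-like, endothelial-like, T or NK-like and oligodendrocyte-like. Within classes the median mitochondrial share could run opposite to that over all kept cells. It was 11.8% to 14.4% in infarction against 6.75% to 8.36% in sham in endothelial-like cells. In microglia-like cells it was 7.095% to 7.69% in infarction against 4.76% to 5.12% in sham. In T or NK-like cells it was also higher in every infarction library than in any sham library. In oligodendrocyte-like cells the groups overlapped. Values of a gene in several libraries are given below in the order 1, 2, 3, and CPM is counts (UMIs) per 1000000 UMIs of the named cells in that library.

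Summed over all kept cells, every member with enough UMIs to be tested was higher after infarction. B2m had 5892, 5069 and 5759 CPM in infarction libraries, against 2624, 2920 and 3403 CPM in sham libraries. Psmb9 had 173, 157 and 185 CPM in infarction, against 48.0, 48.6 and 52.1 CPM in sham. Psmb10 had 164, 189 and 189 CPM in infarction, against 46.1, 56.1 and 66.2 CPM in sham. In each of these genes all infarction libraries lay above all sham libraries, as they did for all 9 members tested and for 79.3% of all genes tested. The log2 fold changes of infarction over sham, with SE, were 1.37 ± 0.12 for B2m, 2.26 ± 0.09 for Psmb9 and 2.15 ± 0.14 for Psmb10. The third catalytic subunit, Psmb8, had far fewer UMIs, 533, 348 and 426 in infarction against 19, 34 and 60 in sham, and a log2 fold change of 3.82 ± 0.48. For the PA28 subunits the values were 526, 572 and 590 CPM in infarction against 390, 408 and 366 CPM in sham for Psme1, with a log2 fold change of 1.001 ± 0.078. Psme2 had 208, 219 and 234 CPM in infarction against 109, 109 and 106 CPM in sham, with a log2 fold change of 1.49 ± 0.07. The transporter and its partner moved in the same direction, Tap1 by 1.58 ± 0.14 and Tapbp by 1.34 ± 0.13 on the log2 scale. Nlrc5 was sparse, with 20, 15 and 23 UMIs in infarction against 6, 8 and 6 in sham and a log2 fold change of 1.82 ± 0.33. Tap2 had 0, 3 and 3 UMIs in infarction against 1, 0 and 2 in sham and was not tested. The annotation behind the counts is not given in the sources used here. These libraries count the 3′ ends of transcripts, so for Tap2 and Psmb8 a low transcript level and an annotated end that misses their reads cannot be told apart, and the levels of Psmb8 and its share in a pair can be compared only between samples.

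All 9 tested members passed edgeR's quasi-likelihood test with Benjamini-Hochberg adjustment, the adjusted p ranging from 1.19e-05 for Psmb9 to 0.00285 for Nlrc5. Across all 14613 genes tested, 33.2% were called higher and 38.1% lower, so a call by itself was common. The median log2 fold change was 1.58 over the 9 members and -0.13 over all genes. Scaling by library totals in place of TMM factors, the trimmed-mean scaling of edgeR, moved all fold changes by -0.47, and the 9 members stayed called higher. In the same sums the constitutive subunits were called higher 3 of 3, with a median log2 fold change of 0.49, and the other 20S core subunits 10 of 10, with a median of 0.84. These sums cannot tell a changed number of cells of a type from a changed amount of RNA per cell.

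The cells that supplied the transcripts differed between the groups. In infarction libraries a mean of 41.7% of B2m UMIs came from macrophage-like, 21.5% from microglia-like, 9.88% from neutrophil-like and 9.77% from dendritic-like cells. In sham libraries a mean of 31.7% came from smooth muscle-like and 27.8% from microglia-like cells. In sham 3 alone microglia-like cells gave more, 45.5% against 32.8%. Psmb9 UMIs of infarction libraries came from macrophage-like cells (31.0%), dendritic-like cells (29.3%) and microglia-like cells (17.7%), by the mean over libraries. In sham libraries the sources of Psmb9 differed between libraries: microglia-like cells gave 13.5%, 19.6% and 51.3% of its UMIs, choroid plexus-like cells 12.7%, 22.6% and 0.527%, and T or NK-like cells 12.1%, 9.69% and 8.35%. Psme1 in infarction came mostly from macrophage-like (34.4%) and microglia-like (33.4%) cells by the mean over libraries. In sham its sources differed between libraries. Smooth muscle-like cells gave 35.2%, 24.5% and 41.3%, choroid plexus-like cells 16.7%, 27.4% and 0.772%, and microglia-like cells 7.47%, 14.1% and 31.5%. Macrophage-like cells were the largest named source of B2m in all 3 infarction libraries, with 31.7%, 39.6% and 53.8%. For the other 2 genes they led in infarction 3 alone. Their Psmb9 shares were 23.4%, 28.7% and 40.8%, against 27.5%, 32.2% and 28.3% from dendritic-like cells, and their Psme1 shares 27.7%, 31.6% and 43.8%, against 38.4%, 36.5% and 25.3% from microglia-like cells. The named class held 0 sham cells, but sham cells were also found in 2 unnamed clusters: one led by Cxcl13, Fcmr and Lyve1 had 5, 9 and 8 infarction cells against 154, 154 and 120 sham cells, and one with 5 macrophage markers had 802, 767 and 609 infarction cells against 4, 22 and 1 sham cells.

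The level within a class ranked the classes differently for B2m and for Psmb9 in infarction libraries. Only classes with at least 20 cells in all 3 libraries of a group were ranked. Among these, T or NK-like cells had the highest mean of both genes in sham libraries. Neutrophil-like and dendritic-like cells were too few in sham to be ranked, but both had more Psmb9 than T or NK-like cells in each sham library. In infarction libraries B2m was highest in T or NK-like cells, at 13557 ± 665 CPM (SD, n = 3), followed by neutrophil-like cells at 11105 ± 1151, endothelial-like cells at 8448 ± 913 and microglia-like cells at 6071 ± 451 CPM. Dendritic-like cells at 5235 ± 355 and macrophage-like cells at 4835 ± 556 CPM overlapped, and oligodendrocyte-like cells were lowest at 1214 ± 100 CPM. In sham libraries T or NK-like cells (10070 ± 1796 CPM), microglia-like cells (7969 ± 511) and endothelial-like cells (6749 ± 1105) overlapped with their neighbours in the order. Fibroblast-like cells followed at 4896 ± 734 CPM, and then pericyte-like (2408 ± 254), smooth muscle-like (2113 ± 177), oligodendrocyte-like (1571 ± 918), oligodendrocyte precursor-like (908 ± 171) and astrocyte-like cells (758 ± 106), each overlapping the next. Neuron-like cells were lowest of the ranked classes and apart, at 199 ± 45.0 CPM. The oligodendrocyte-like class was a mixture, described below, so its rank is that of no single kind of cell. In sham its cells with mature myelin genes had 223, 273 and 176 CPM of B2m, and its other cells 2864, 3259 and 2585 CPM.

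**Figure D1:**
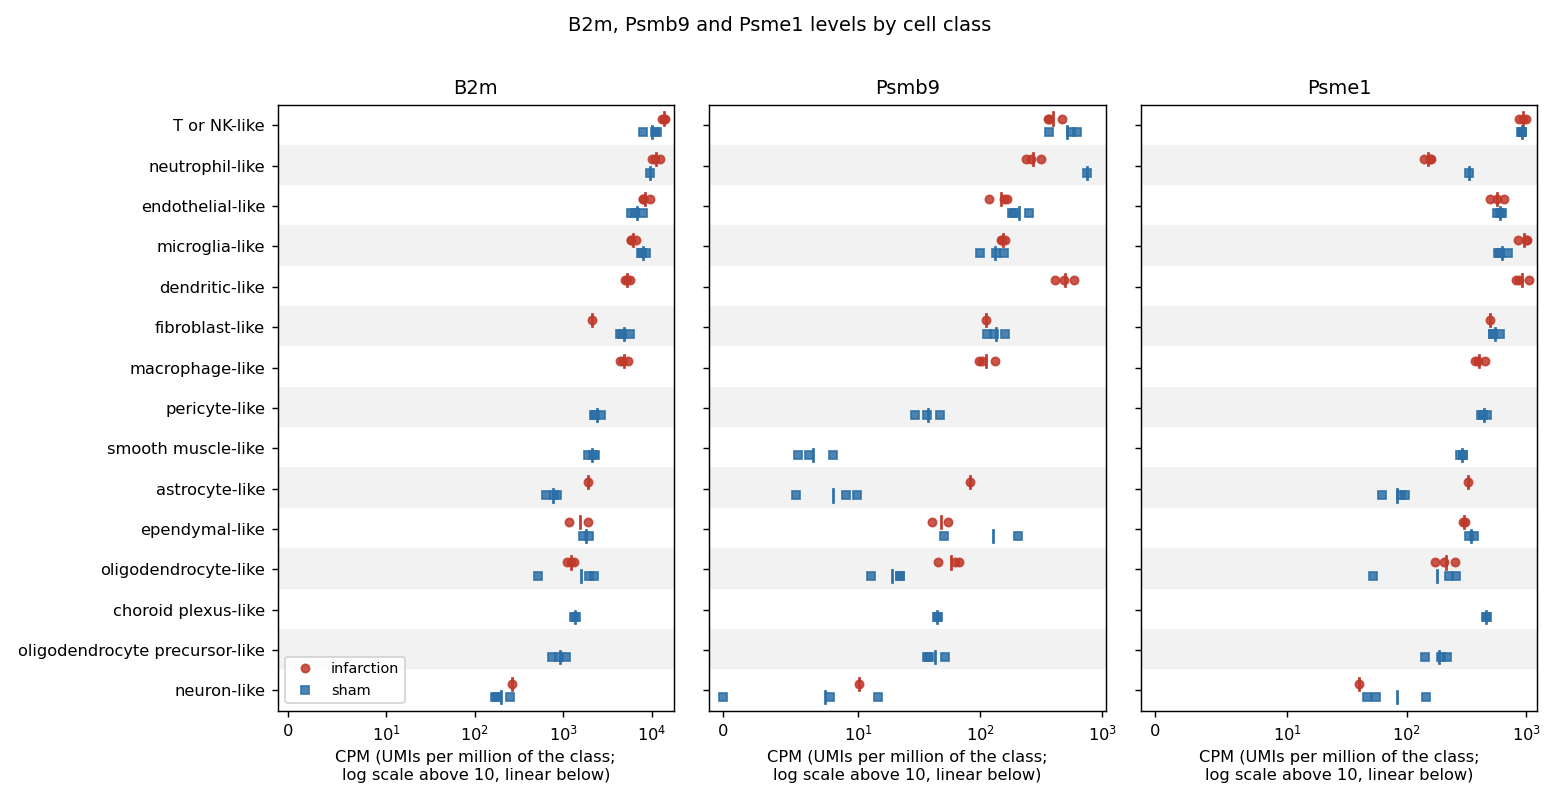
Levels of B2m, Psmb9 and Psme1 in CPM (log scale above 10, linear below) in each cell class. Each point is a library with at least 20 cells of that class, red circles infarction above blue squares sham, and vertical bars are means over libraries. Smooth muscle-like cells sit below 10 CPM for Psmb9 but at a mean of 287 CPM for Psme1, and T or NK-like cells sit at the top for B2m in both groups. Oligodendrocyte-like points are those of a mixed cluster.

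Psmb9 followed another order. In infarction libraries it was highest in dendritic-like cells, at 494 ± 91.9 CPM, and T or NK-like cells, at 398 ± 59.9 CPM, which overlapped. Neutrophil-like cells had 270 ± 40.5 CPM. Microglia-like cells at 152 ± 6.66, endothelial-like cells at 147 ± 25.5 and macrophage-like cells at 111 ± 18.9 CPM each overlapped the next. Oligodendrocyte-like cells had 57.8 ± 11.4 CPM. Within the dendritic-like class the cluster led by Clec9a, a marker of the dendritic cells that specialise in cross-presentation, had 909 ± 50.1 CPM of Psmb9, and the cluster led by Ccl17 and Ccl22, chemokine genes, had 299 ± 72.6 CPM. Psme1 showed the same order of these clusters, 1324 ± 69.2 CPM in the Clec9a cluster against 725 ± 113 CPM in the other, as did Tap1, 126 ± 12.1 CPM in the Clec9a cluster against 77.5 ± 19.7 CPM in the other. B2m had the opposite order, 4546 ± 370 CPM in the Clec9a cluster against 5559 ± 444 CPM in the other, and the libraries did not overlap in any of the 4 genes.

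Among the 3 named vessel classes of the sham libraries, smooth muscle-like cells had the lowest mean of each of 8 members, all but Tap2 and Nlrc5, although their B2m overlapped that of pericyte-like cells. They had 2113 ± 177 CPM of B2m, 287 ± 7.88 CPM of Psme1 and 81.2 ± 3.91 CPM of Psme2. The same cells had 21.4 ± 1.82 CPM of Psmb10, 6.67 ± 1.30 CPM of Psmb9, 5.46 ± 1.09 CPM of Tap1 and 7.91 ± 0.94 CPM of Tapbp, and Psmb8 had 0, 0 and 2 UMIs. The other vessel cells of these libraries stood higher. Endothelial-like cells had 207 ± 37.3 CPM of Psmb9, 141 ± 11.7 CPM of Psmb10, 61.8 ± 20.9 CPM of Tap1 and 56.5 ± 7.23 CPM of Tapbp, and pericyte-like cells 37.4 ± 8.61 CPM of Psmb9 and 58.2 ± 4.49 CPM of Psmb10. UMIs of the smooth muscle-like class were 1 cell's in infarction, so no comparison between groups was possible there.

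Across the 61 class and library combinations with at least 20 cells, which share libraries and their free RNA, the members varied together. The correlation of a member's log level with the mean of the others was 0.91 for Psmb9, 0.88 for B2m, 0.84 for Psme2, 0.83 for Tap1, 0.83 for Tapbp, 0.82 for Psme1 and 0.77 for Psmb10, and the median over 6559 genes was -0.22. The most similar genes outside the members were RT1-CE10 (0.91), RT1-A1 (0.85) and LOC100363469 (0.85), followed by Sp110 (0.85), RT1-CE5 (0.84), MGC108823 (0.84), RT1-CE4 (0.84), Arhgdib (0.83), Map4k1 (0.82) and Ifi47 (0.82). RT1-CE10, RT1-A1, RT1-CE5 and RT1-CE4 are class I heavy chain genes. Some heavy chain genes are similar in sequence, so their reads may be hard to assign to 1 gene, and their single values are uncertain.

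Within microglia-like cells Psmb8, Psmb10 and both PA28 subunits were called higher and the light chain and tapasin lower, while Psmb9 and Tap1 were not called. These are 4 and 2 of the 8 members tested, where 31.9% of 10531 genes were called higher and 30.9% lower. Of the members not tested here, Tap2 had 0, 1 and 0 UMIs in infarction against 0, 0 and 1 in sham, and Nlrc5 3, 2 and 7 UMIs in infarction against 0, 0 and 3 in sham. Psme1 had 854, 988 and 1016 CPM in infarction against 706, 603 and 582 CPM in sham. Psme2 had 263, 283 and 263 CPM in infarction against 191, 181 and 170 CPM in sham. The infarction libraries lay above the sham libraries in both genes, with log2 fold changes of 0.59 ± 0.09 and 0.57 ± 0.08. Psmb10 had 230, 251 and 245 CPM in infarction against 204, 187 and 177 CPM in sham, a log2 fold change of 0.34 ± 0.08. Psmb8 had 10.3, 6.09 and 7.60 CPM in infarction against 1.87, 2.17 and 4.06 CPM in sham, a log2 fold change of 1.39 ± 0.31 at a low level. Neither gene's groups overlapped. The groups did not overlap in 6 of the 8 members tested, and in 69.1% of all genes tested.

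B2m in microglia-like cells ran the other way, at 5869, 5757 and 6588 CPM in infarction against 8538, 7549 and 7819 CPM in sham. Tapbp had 36.7, 40.0 and 47.4 CPM in infarction against 54.8, 52.3 and 59.6 CPM in sham. All infarction libraries lay below all sham libraries for both genes, and the log2 fold changes were -0.40 ± 0.08 and -0.45 ± 0.11. Tap1, at 58.1, 51.8 and 65.2 CPM in infarction against 68.0, 55.3 and 55.7 CPM in sham, and Psmb9, at 148, 149 and 160 CPM in infarction against 157, 100 and 135 CPM in sham, overlapped and were not called. By edgeR's quasi-likelihood test with Benjamini-Hochberg adjustment the adjusted p was 0.000905 for B2m, 0.00399 for Tapbp, 0.0003 for Psme1, 8.86e-05 for Psme2, 0.0029 for Psmb10, 0.00249 for Psmb8 and 0.189 for Psmb9. Psmb9 had a log2 fold change of 0.22 and Tap1 of -0.025. The median log2 fold change of the tested members was 0.28 and that of all genes -0.02. All 6 calls held with each library left out in turn, sham 3 included, the highest adjusted p being 0.0286, that of Tapbp.

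**Figure D2:**
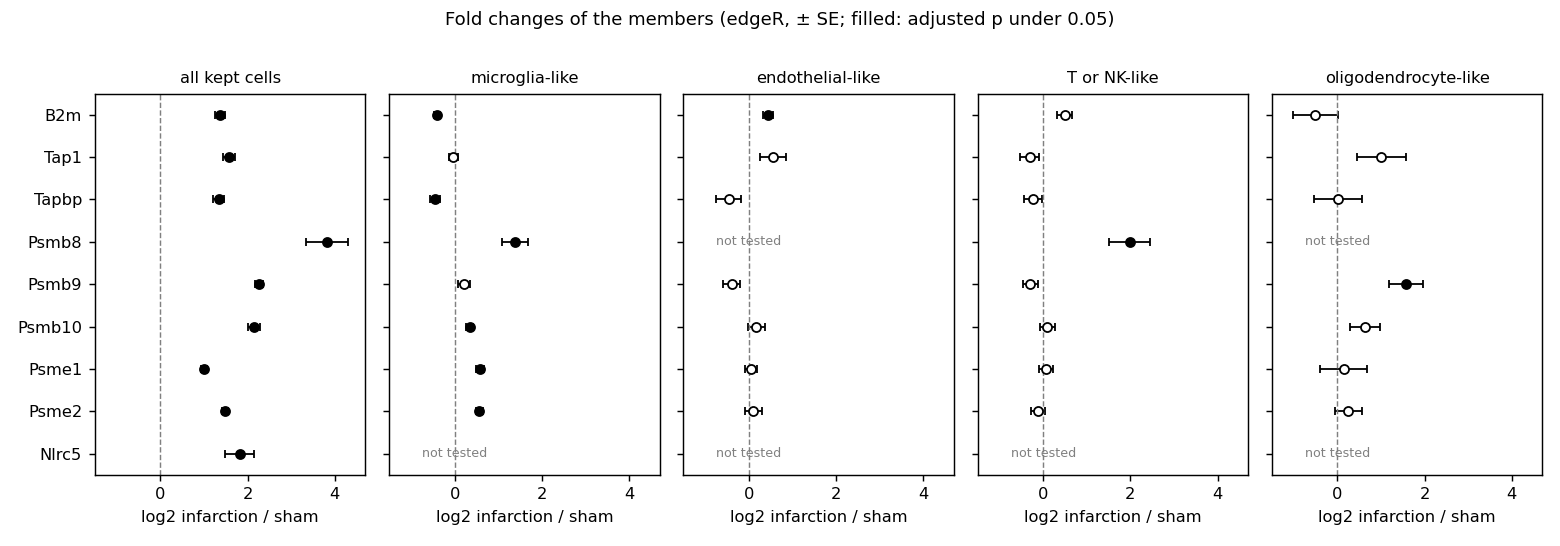
Log2 fold changes of infarction over sham for 9 members in all kept cells and in the 4 tested classes, with SE bars from edgeR. Filled points have an adjusted p under 0.05. All 9 points are filled and right of 0 for all kept cells, while B2m and Tapbp lie left of 0 in microglia-like cells.

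Other genes of the pathway in microglia-like cells were described by their lists. All 3 constitutive catalytic subunits were called higher, Psmb5 by 0.76, Psmb6 by 0.80 and Psmb7 by 1.28 on the log2 scale, as were all 10 other 20S core subunits in the files, with a median of 0.80. The smallest p-values among the core subunits were those of Psma1 (1.30), Psmb4 (1.04), Psmb2 (0.88) and Psma5 (0.89). Psma1 had 225 ± 17.7 CPM in infarction against 90.6 ± 6.80 CPM in sham. Of 3 other tested genes of proteasome activation and assembly, Psme3, which forms another activator cap, was called higher by 0.91. Of 9 loading and trimming genes of the endoplasmic reticulum, 5 were called higher and 2 lower: the chaperones Calr (0.28) and Hspa5 (0.59), the trimming peptidase Erap1 (0.40), Sec61b (1.43) and Sar1b (0.34) were higher, and Tapbpl (-0.78), a relative of tapasin, and Bcap31 (-0.27) were lower.

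Of 21 listed class I heavy chain genes 11 were tested in microglia-like cells, with 6 called lower, 1 higher and 4 not called, where 30.9% of all genes were called lower and 31.9% higher. Their median log2 fold change was -1.04, and the list itself was not tested. RT1-A1 had 633 ± 43.4 CPM in infarction against 1122 ± 255 CPM in sham, RT1-CE10 641 ± 124 CPM in infarction against 1358 ± 101 CPM in sham, and RT1-CE4 371 ± 48.5 CPM in infarction against 899 ± 100.2 CPM in sham (SD, n = 3 each). RT1-CE5 (-0.40), RT1-CE7 (-0.82) and RT1-M3-1 (-1.24) were also called lower. RT1-N3 was the gene called higher, by 1.47. Fcgrt and Hfe, whose proteins also pair with B2m, were also called lower, with log2 fold changes of -0.84 and -0.96. Of 19 tested interferon signalling genes, 8 were called lower and 3 higher, against the same 30.9% and 31.9% of all genes. Ifngr1, a chain of the interferon gamma receptor, had 381 ± 61.6 CPM in infarction against 1246 ± 45.5 CPM in sham, and Irf2, Jak1, Tyk2, Stat2, Irf1, Rfx5 and Ifngr2 were also lower. Irf7 (2.38), Socs1 (1.33) and Irf8 (0.29) were higher. Transcripts of the ligands were few: over all kept cells Ifng had 0, 0 and 13 UMIs in infarction against 6, 2 and 6 in sham, and Ifnb1 32, 5 and 15 UMIs in infarction against 0, 1 and 4 in sham.

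The microglia-like cells of the groups lay in different clusters. The cluster led by Cox6a2, Cdk1, Anxa3 and Ube2c held 209, 1026 and 422 infarction cells against 4, 4 and 41 sham cells, and the one led by Ccl4, Tnfsf9 and Cd83 held 698, 645 and 529 infarction cells against 7, 1 and 79 sham cells. The clusters led by Tmem119 held 10, 68 and 62 infarction cells in one and 0 in the other, against 32, 26 and 1285 sham cells and 290, 770 and 22 sham cells. UMIs of any of 6 cell cycle genes were found in 66.6%, 47.9% and 49.5% of infarction microglia-like cells against 5.28%, 4.62% and 6.38% of sham cells. The summed level of 14 macrophage markers was 16097, 11230 and 13955 CPM in infarction microglia-like cells against 3564, 2722 and 3121 CPM in sham ones, with 0 of the 14 markers undetected in any infarction library. Without the cells holding a cell cycle UMI, a choice made after seeing the data, B2m gave a log2 fold change of -0.08 with an adjusted p of 0.520 by edgeR's quasi-likelihood test, and Tapbp -0.13 with an adjusted p of 0.435. The 4 genes called higher were again Psmb8, Psmb10, Psme1 and Psme2, Psmb8 by 1.34 and Psmb10 by 0.31. Without the clusters marked by cell cycle genes, which left 12, 77 and 72 infarction cells, none of the 6 calls was kept by the same edgeR test. Psmb10 was then at -0.17 (adjusted p 0.587), Psme2 at 0.065 (0.864), Psme1 at 0.37 (0.0985), Psmb8 at 1.82 (0.107), B2m at -0.031 (0.928) and Tapbp at -0.36 (0.386) on the log2 scale. The part that macrophage markers have in the result was not tested.

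Within single clusters the levels could be set side by side only where both groups had 20 cells. In the Tmem119 and P2ry12 cluster, B2m was at 7579 and 8413 CPM in infarction 2 and 3 and at 9795, 8676 and 7614 CPM in sham 1 to 3, which overlapped. Psme1 in that cluster was at 819 and 808 CPM in infarction 2 and 3 against 852, 674 and 565 CPM in sham, which also overlapped. In the Cox6a2 and Ccl4 clusters sham 3 was the one sham library with enough cells. In the Cox6a2 cluster B2m was at 5290, 5324 and 5804 CPM in infarction against 7386 CPM in sham 3, and Psme1 at 1043, 1137 and 1214 CPM in infarction against 743 CPM in sham 3. In the Ccl4 cluster B2m was at 5929, 5997 and 6762 CPM in infarction against 8628 CPM in sham 3, and Psme1 at 828, 877 and 954 CPM in infarction against 620 CPM in sham 3. These values have no test.

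The make-up of the catalytic subunits was followed as the share of each immunoproteasome subunit in the UMIs of its pair, which needs no scaling between libraries. Over all kept cells Psmb9 made up 48.0%, 43.2% and 47.5% of Psmb9 plus Psmb6 in infarction against 18.3%, 20.7% and 21.5% in sham. Psmb10 made up 57.3%, 58.5% and 58.6% of Psmb10 plus Psmb7 in infarction against 29.1%, 35.4% and 40.2% in sham. Psmb8 made up 3.07%, 1.66% and 2.21% of Psmb8 plus Psmb5 in infarction against 0.111%, 0.169% and 0.383% in sham. All 3 shares were higher in every infarction library than in any sham library.

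Within microglia-like cells 2 of these shares went the opposite way. Psmb9 made up 40.0%, 39.3% and 42.6% of its pair in infarction against 54.3%, 43.8% and 52.6% in sham, and Psmb10 made up 60.1%, 62.0% and 62.4% in infarction against 75.9%, 74.4% and 75.3% in sham. Both were lower in every infarction library, although Psmb10 itself was called higher. Psmb7 was higher by more. The shares were not recomputed without cycling microglia-like cells. Psmb8 made up 2.98%, 1.57% and 2.20% in infarction against 0.952%, 1.005% and 1.94% in sham, which overlapped. In endothelial-like cells Psmb9 made up 45.9%, 46.8% and 37.4% in infarction against 58.7%, 52.7% and 49.8% in sham, and Psmb10 48.7%, 53.3% and 45.6% in infarction against 54.6%, 60.7% and 57.1% in sham, again without overlap. The Psmb8 share of these cells ran the other way, at 2.99%, 1.82% and 1.27% in infarction against 1.22%, 0.593% and 0.971% in sham, also without overlap, but it rests on 2, 1 and 1 Psmb8 UMIs in infarction and 3, 4 and 2 in sham.

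In T or NK-like cells the Psmb8 share was 11.1%, 8.19% and 9.30% in infarction against 2.11%, 2.98% and 5.13% in sham, without overlap, and the other shares overlapped. In the oligodendrocyte-like cluster Psmb9 made up 18.5%, 19.1% and 15.5% in infarction against 11.8%, 11.7% and 6.45% in sham. Each pair without overlap gave p = 0.1 in an exact two-sided permutation test over 20 assignments of the libraries, the smallest that 3 against 3 allows, and 0.15 after Benjamini-Hochberg adjustment over the 15 comparisons made. None can therefore pass 0.05 in this design. Limiting cells to at most 10% mitochondrial UMIs reduced the difference of infarction minus sham means over all kept cells to 13.3 percentage points for Psmb9 and 11.04 for Psmb10, against 26.0 and 23.2.

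**Figure D3:**
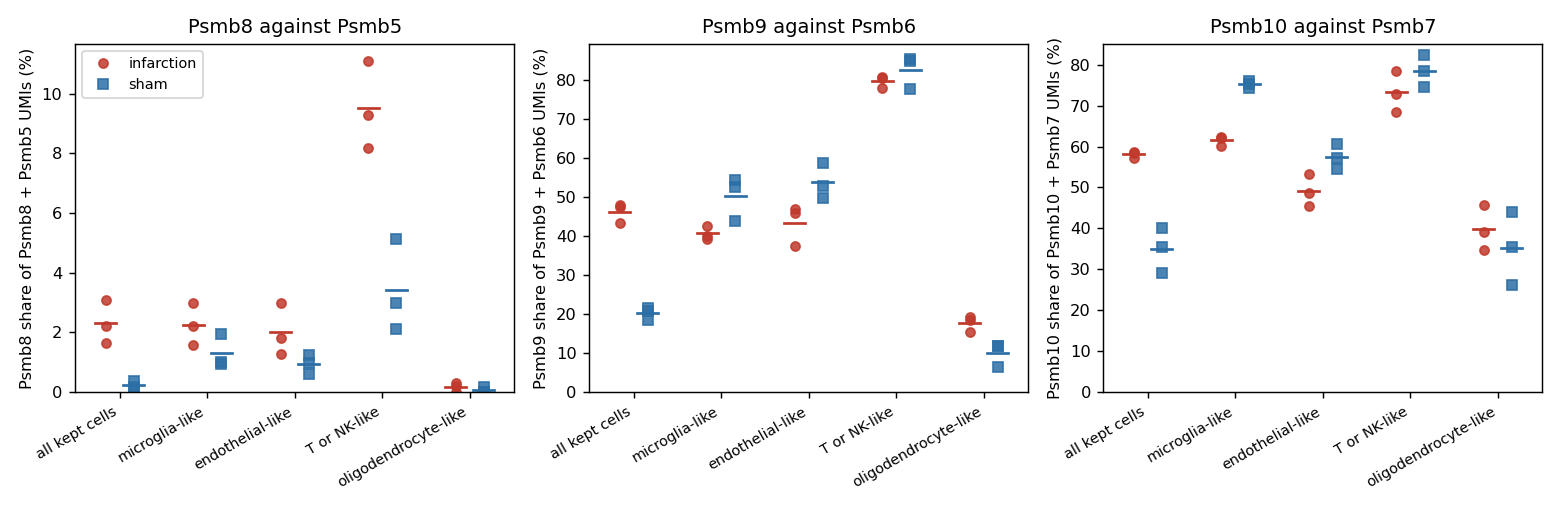
Share in percent of Psmb8, Psmb9 and Psmb10 in the UMIs of each catalytic pair, by class. Points are libraries, red circles infarction left of blue squares sham, and bars are means. The Psmb9 and Psmb10 shares are higher in infarction over all kept cells and lower in infarction within microglia-like and endothelial-like cells.

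In endothelial-like cells the light chain was the one member called. B2m had 7959, 9502 and 7885 CPM in infarction against 7991, 6383 and 5874 CPM in sham. Sham 1 lay above 2 of the infarction libraries, so the groups overlapped. The log2 fold change was 0.44 ± 0.12, with an adjusted p of 0.0379 by edgeR's quasi-likelihood test with Benjamini-Hochberg adjustment. This was 1 of 7 members tested, where 3.95% of 5855 genes were called higher and 4.56% lower. The call was lost without infarction 1 (0.49, adjusted p 0.0731), infarction 2 (0.37, 0.138), sham 2 (0.41, 0.0713) or sham 3 (0.36, 0.111), and with DESeq2 (0.46, 0.0955) or library totals (0.32, 0.132), while the log2 fold change stayed positive.

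The other members in endothelial-like cells were not called. Psmb9 had 156, 167 and 119 CPM in infarction against 250, 182 and 189 CPM in sham, with every infarction library below every sham library and a log2 fold change of -0.40 ± 0.20. Groups without overlap were found in 2 of 7 members and in 30.4% of all genes tested in this class. Tapbp had 40.1, 46.1 and 32.6 CPM in infarction against 56.7, 63.6 and 49.1 CPM in sham, likewise without overlap, and a log2 fold change of -0.47 ± 0.28. Tap1 had 88.2, 115 and 59.3 CPM in infarction against 85.6, 53.7 and 46.1 CPM in sham, a log2 fold change of 0.55 ± 0.30. By edgeR's quasi-likelihood test the adjusted p was 0.256 for Psmb9, 0.350 for Tapbp and 0.289 for Tap1. Psmb10, Psme1 and Psme2 had log2 fold changes of 0.17, 0.05 and 0.10 and were not called. Psmb8 had 2, 1 and 1 UMIs in infarction against 3, 4 and 2 in sham, too few for a test. Tap2 had no UMI in any library, and Nlrc5 0 UMIs in infarction against 3, 0 and 0 in sham.

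Other pathway genes in endothelial-like cells that were called were all higher: Psmb7 by 0.67, Psma1 by 0.91, the chaperones Calr by 0.92, Canx by 0.59 and Hspa5 by 1.34, and Socs1, an inhibitor of interferon signalling, by 1.71 on the log2 scale. Hspa5 had 664 ± 125 CPM in infarction against 283 ± 37.9 CPM in sham. None of the 10 heavy chain genes tested was called. The class held 37, 43 and 71 infarction cells against 79, 215 and 54 sham cells. Their median depth was 3840, 3281 and 3383 UMIs in infarction against 6579, 7128 and 6945 UMIs in sham. The share of free RNA estimated from markers of other cells was 0.17%, 10.1% and 0.473% of infarction UMIs against 4.93%, 5.31% and 3.66% of sham UMIs. It rests on 6, 5 and 5 neutrophil markers in infarction and on 10 markers, smooth muscle genes among them, in sham. The groups are therefore not measured alike, and macrophage RNA is not covered. The summed level of 14 macrophage markers was 8307, 8793 and 9246 CPM in infarction against 4313, 4998 and 2871 CPM in sham. This was 25.8%, 29.1% and 24.4% of their level over all kept cells in infarction, against 218%, 301% and 112% in sham. The summed level of 10 neutrophil markers was 16.03, 645 and 14.8 CPM in infarction against 3.33, 10.8 and 2.98 CPM in sham, with Cxcr2, Mmp8, Retnlg and Ngp at 0 in all 6 libraries. With the free RNA subtracted, B2m gave 0.43 and an adjusted p of 0.0761.

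The response of B2m differed between classes. Set against microglia-like cells in one model of class by group that holds each library as a block, the log2 fold change of B2m was larger by 0.94 ± 0.11 in endothelial-like cells and by 0.98 ± 0.15 in T or NK-like cells. The adjusted p by edgeR's quasi-likelihood test was 1.11e-06 for endothelial-like cells, where 18.6% of 9948 genes were called, and 4.79e-07 for T or NK-like cells, where 19.6% of 8480 genes were called. Both differences stayed called with each library left out. Neither was refitted without cycling microglia-like cells. The B2m log2 fold change of microglia-like cells, -0.40 in the main fit, was -0.08 without cells holding a cell cycle UMI. It was -0.031 without the clusters marked by cell cycle genes. Psme1 differed in the opposite direction in endothelial-like cells, by -0.46 ± 0.14, and Psme2 in T or NK-like cells, by -0.60 ± 0.19, with adjusted p-values of 0.0226 and 0.0162 by the same edgeR test. In the oligodendrocyte-like cluster Psmb9 differed by 1.599 ± 0.402, with an adjusted p of 0.0425, where 5.9% of 9979 genes were called.

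In T or NK-like cells, which had the highest B2m of the tested classes, B2m had 14157, 13671 and 12843 CPM in infarction against 11338, 8014 and 10858 CPM in sham. Every infarction library lay above every sham library, as in 26.3% of all genes tested in this class, but the log2 fold change of 0.49 ± 0.16 had an adjusted p of 0.0658 by edgeR's quasi-likelihood test. Psmb8 was the one member called, with 30.3, 21.3 and 28.0 CPM in infarction against 4.15, 6.13 and 9.95 CPM in sham. These rest on 10, 14 and 16 UMIs in infarction and 2, 5 and 4 in sham. The log2 fold change was 1.99 ± 0.47 with an adjusted p of 0.00826, and it was the 1 call among 8 members tested, where 5.33% of 4480 genes were called higher and 3.19% lower. The adjusted p was 0.0503 without sham 1, 0.0510 without sham 2 or infarction 2, 0.0677 without infarction 3 and 0.0610 with DESeq2.

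Psmb9 in T or NK-like cells had 361, 366 and 467 CPM in infarction against 622, 363 and 552 CPM in sham, and Tap1 173, 129 and 150 CPM in infarction against 270, 124 and 194 CPM in sham. Both overlapped, with log2 fold changes of -0.29 and -0.31 and no call. Psmb10, Psme1, Psme2 and Tapbp had log2 fold changes of 0.09, 0.07, -0.12 and -0.24 and were not called. Tap2 had no UMI in these cells, and Nlrc5 had 2, 2 and 2 UMIs in infarction against 2, 1 and 1 in sham. Among other pathway genes RT1-CE4 (-0.65) and RT1-CE5 (-0.55) were called lower, 2 of 11 heavy chains tested, and Ifngr1 (2.16) and Nfkb1 (0.80) higher. Ifngr1 had 313 ± 92.9 CPM in infarction against 73.1 ± 23.0 CPM in sham in these cells, opposite in direction to microglia-like cells.

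The cluster named oligodendrocyte-like was a mixture, which goes against its label. Cells with at least 2 UMIs of Mog, Mobp, Opalin and Ermn, 4 genes of mature oligodendrocytes, numbered 10, 17 and 98 in infarction against 9, 13 and 81 in sham. The other cells, 44, 140 and 178 in infarction against 50, 41 and 68 in sham, held little Mog, at 3.57, 16.2 and 29.5 CPM in infarction against 6.34, 0 and 29.1 CPM in sham. These other cells were unlike between the groups. They had Gal, a neuropeptide, at 3119, 2998 and 1840 CPM in infarction against 0 CPM in each sham library. Vgf, a secreted neuropeptide precursor, was at 2747, 3083 and 2375 CPM in infarction against 0, 0 and 19.4 CPM in sham.

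Over this whole cluster B2m had 1311, 1220 and 1111 CPM in infarction against 2234, 1956 and 523 CPM in sham, with sham 3 below and sham 1 and 2 above all infarction libraries. Psmb9 had 66.6, 61.7 and 44.9 CPM in infarction against 21.7, 21.8 and 12.6 CPM in sham, without overlap, as did 39.6% of all genes tested in this cluster. Its log2 fold change was 1.57 ± 0.38 with an adjusted p of 0.0287 by edgeR's quasi-likelihood test, the 1 call among 7 members tested, where 9.13% of 6809 genes were called higher and 7.4% lower. The call was lost when any library but infarction 3 was left out, the adjusted p then being 0.0538 to 0.118. Tap1 had 16.7, 41.1 and 34.8 CPM in infarction against 16.9, 24.3 and 6.28 CPM in sham and a log2 fold change of 1.003 ± 0.561 with no call. The other members were not called either, with log2 fold changes of -0.50 ± 0.52 for B2m, 0.63 ± 0.34 for Psmb10, 0.25 ± 0.32 for Psme2, 0.15 ± 0.54 for Psme1 and 0.0094 ± 0.54 for Tapbp. Psmb8 had 1, 0 and 1 UMIs in infarction against 0, 0 and 1 in sham, and Tap2 and Nlrc5 had none. Among other pathway genes Psma1 was called higher by 1.07, and RT1-A2, Fcgrt and Ifngr1 lower, with log2 fold changes of -2.91, -2.63 and -2.33.

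Split by kind, which was chosen after seeing the data and has no test, the cells with mature myelin genes showed higher B2m in each infarction library. They had 479, 1991 and 1247 CPM in infarction, with 95% exact Poisson intervals of 289 to 748, 1722 to 2291 and 1162 to 1337. In sham they had 223, 273 and 176 CPM, with intervals of 140 to 337, 202 to 360 and 153 to 201. The intervals cover counting error only, and that of infarction 1, from 10 cells, overlapped those of sham 1 and sham 2. Psmb9 was at 25.2, 235 and 56.5 CPM in infarction against 0, 5.56 and 0 CPM in sham, and Psme1 at 50.5, 245 and 182 CPM in infarction against 40.5, 55.6 and 18.8 CPM in sham. The cells held similar levels of Mog, 1261, 1317 and 1012 CPM in infarction against 1134, 1508 and 1435 CPM in sham. Their median depth was 3122, 1870 and 2658 UMIs in infarction against 9494, 15947 and 13535 UMIs in sham.

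B2m in these mature infarction cells stood at 8.13%, 39.3% and 21.7% of its level over all kept cells of the library, while the summed neutrophil markers stood at 3.28%, 2.39% and 0.933% and the summed macrophage markers at 7.05%, 4.33% and 4.87% of theirs. The B2m and macrophage shares lay close to each other in infarction 1 and further apart in infarction 2 and 3. Macrophage-like cells were not the only source of B2m, and the part of free RNA in these values was not tested. The other cells of the cluster had 1370, 1109 and 950.3 CPM of B2m in infarction against 2864, 3259 and 2585 CPM in sham, lower in each infarction library, so the order of the groups was opposite in the 2 kinds of cell. Psmb9 in these other cells was at 69.6, 36.8 and 31.4 CPM in infarction against 28.5, 34.4 and 87.3 CPM in sham, and Psme1 at 268, 200.1 and 162 CPM in infarction against 324, 353 and 247 CPM in sham, both overlapping.

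**Figure D4:**
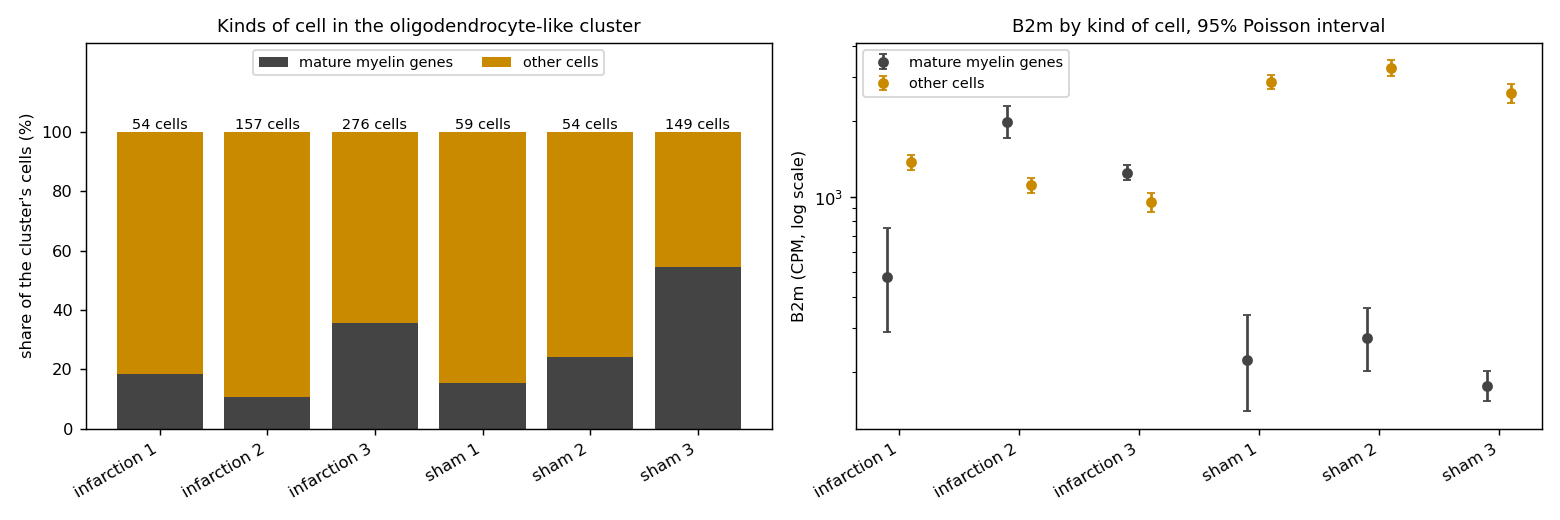
Left, share in percent of cells with mature myelin genes and of other cells in the oligodendrocyte-like cluster of each library, with cell numbers. Right, B2m in CPM (log scale) in both kinds of cell with 95% Poisson intervals. Cells with mature myelin genes sit between 479 and 1991 CPM in infarction and between 176 and 273 CPM in sham, and the other cells between 950.3 and 1370 CPM in infarction and between 2585 and 3259 CPM in sham.

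Astrocyte-like cells were nearly lost from the infarction libraries, with 1, 7 and 24 cells against 191, 138 and 495 in sham, and were not tested. In the 24 cells of infarction 3 B2m was at 1908 CPM, against 839, 796 and 637 CPM in sham. Psme1 was at 326 CPM in infarction 3 against 89.2, 96.7 and 61.8 CPM in sham, and Psmb9 at 81.6 CPM in infarction 3, from 5 UMIs, against 9.91, 9.07 and 5.40 CPM in sham. Tap1 was at 114 CPM in infarction 3, from 7 UMIs, against 30.8, 16.6 and 18.3 CPM in sham. Tapbp, at 32.6 CPM in infarction 3 from 2 UMIs against 12.1, 22.7 and 15.8 CPM in sham, and Psmb10, at 48.9 CPM in infarction 3 from 3 UMIs against 23.1, 34.8 and 21.2 CPM in sham, likewise lay above the sham libraries. Psme2 lay below them, at 16.3 CPM in infarction 3 from 1 UMI against 37.4, 31.7 and 29.1 CPM in sham. Psmb8, Tap2 and Nlrc5 had no UMI in these cells in any library. All of these infarction values come from 1 library.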

How the data were processed

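Single-cell 3′ RNA libraries of 3 infarction and 3 sham samples were analysed from the deposited raw UMI counts per gene and barcode. Per the submitters' processing notes, the authors used CASAVA 1.8, Cell Ranger 3.1.0 and Seurat 2.3.4. The genome build is not given in the sources used here. No deposited barcode held fewer than 500 UMIs. Of identifiers sharing a symbol (121 symbols) only the one with most UMIs kept it.

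Cells were kept with at least 500 UMIs, 200 genes and at most 20% of UMIs from 13 mitochondrial genes, and with a Scrublet doublet score of at most 0.25. scanpy 1.11.5 clustered them on 2000 variable genes, 30 components and 15 neighbours (Leiden, resolution 1.0) with no correction between libraries. A cluster was named X-like from at least 3 listed markers, each in at least 25% of its cells and at least 1 log2 unit above other cells. UMIs were summed per library and class and fitted with edgeR 4.0.16 (R 4.3.3; TMM factors, filterByExpr, quasi-likelihood test, called under 0.05), with group as the only term and Benjamini-Hochberg adjustment over all genes of a class. Class differences were interaction terms with the library as a block. The fits were tested on simulated data with known changes. At a log2 change of 1, 38.0% of changed genes were recovered in endothelial-like and 50% in oligodendrocyte-like cells. The share was 54.7% in T or NK-like and 56.8% in microglia-like cells. At a log2 change of 2 it was 91.8% to 100% in these classes. A member without a call is therefore not shown to be unchanged. Free RNA was estimated from neutrophil and smooth muscle markers at 20 CPM or more over all cells. Correlations used log2(CPM + 1) of genes averaging at least 20 CPM. Alternatives were other scaling, DESeq2 1.42.0, no filter, other cell limits and resolution, free RNA subtracted, and each library left out.

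The members, and the marker and pathway lists, were chosen with earlier results of these data known. All 10 members are named in every class tested. Of each other pathway list all genes were counted, and up to 4 called genes with the smallest p are named; further called genes named were chosen after their values were seen. Replicate numbers were checked for pairing, and no class had every pair of same-numbered libraries correlated above 0.1. 1 gene is not reported here.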

Additional observations from a re-analysis of the deposited data

Results flagged for a closer look

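A total of 5 differences between classes stood out because the change with infarction differed from that of microglia-like cells in a test of the difference itself, edgeR's quasi-likelihood test of the class by group interaction. B2m differed by 0.94 on the log2 scale in endothelial-like cells and by 0.98 in T or NK-like cells; the log2 fold changes themselves were 0.44 and 0.49, against -0.40 in microglia-like cells. Leaving out each library in turn gave 0.80 to 1.03 for endothelial-like and 0.90 to 1.08 for T or NK-like cells, all called. Neither difference was refitted without cycling microglia-like cells, where the microglia-like B2m log2 fold change was -0.08 or -0.031.

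The other 3 were less stable. Psme1 differed by -0.46 in endothelial-like cells, with an adjusted p from 0.0146 to 0.102 by the same edgeR test when a library was left out. Psme2 differed by -0.60 in T or NK-like cells, with an adjusted p from 0.00443 to 0.149. Psmb9 differed by 1.599 in the oligodendrocyte-like cluster, with an adjusted p of 0.0425 that became 0.0470 to 0.151, and that cluster held unlike kinds of cell in the 2 groups. The causes of these differences were not tested.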

How the results depend on the processing

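Over all kept cells 9 members stayed called higher and 0 lower in every alternative run. Counts of called members in a class moved more. Endothelial-like cells had 1 called higher, and 0 with library totals, DESeq2, free RNA subtracted or resolution 0.5. Microglia-like cells had 4 higher and 2 lower; without cycling clusters, which left 12, 77 and 72 infarction cells, 0 were called in either direction, and without cells holding a cycling UMI 0 were lower. The oligodendrocyte-like cluster had 1 higher, and 0 at 10% mitochondrial UMIs. T or NK-like cells had 1 higher, 2 with library totals, 2 with a replicate block (B2m 0.49, adjusted p 0.0251 by edgeR) and 0 with DESeq2 or at 10% mitochondrial UMIs. No class had every pair of same-numbered libraries correlated above 0.1, which cannot exclude pairing. In microglia-like cells the same-numbered pairs, at 0.043, 0.086 and 0.030, correlated above the highest other pair, at 0.020. The block changed no other count by more than 1.5 times. With each library left out, counts ran from 0 to 1 for the endothelial-like, oligodendrocyte-like and T or NK-like classes, and 4 to 5 higher with 2 lower for microglia-like cells. Members whose response differed from microglia-like cells numbered 1 to 3 for endothelial-like, 0 to 1 for oligodendrocyte-like (0 also with DESeq2 size factors) and 1 to 2 for T or NK-like cells. With at least 10 cells a library, 7 classes were tested in place of 4.

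Infarction minus sham pair shares, in percentage points, moved to -10.7 for Psmb10 in microglia-like cells without doublet removal (main -13.7). At 10% mitochondrial UMIs they became -0.856 for Psmb8 (main 1.09, a reversal) and -19.3 for Psmb9 (main -10.4) in endothelial-like cells, and 13.3 and 11.04 for Psmb9 and Psmb10 over all cells.

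Log2 fold changes that changed sign were not called in the main fit, except that of Psmb10 in microglia-like cells (-0.17 without cycling clusters). In microglia-like cells Tap1 became 0.041 without a filter, 0.061 without cycling-UMI cells and 0.15 without doublet removal, and ran from -0.079 to 0.061 with a library left out. Psmb9 became -0.53 without cycling clusters and -0.016 without cycling-UMI cells. In endothelial-like cells Psme1 became -0.074 with library totals, -0.019 without a filter and -5.6e-05 at resolution 0.5, and ran from -0.025 to 0.15 with a library left out. Psme2 became -0.021 with library totals and ran from -0.069 to 0.27. In the oligodendrocyte-like cluster B2m became 0.043 at resolution 0.5. Tapbp became -0.035 with DESeq2, -0.010 without a filter and -0.015 without doublet removal, and ran from -0.53 to 0.60 with a library left out. Psme1 became -0.039 at 10% mitochondrial UMIs and ran from -0.28 to 0.49. In T or NK-like cells Psmb10 ran from -0.066 to 0.26.

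Differences from microglia-like cells, with a library left out, ran from -0.11 to 0.30 for Tapbp and -0.21 to 0.075 for Psmb10 in endothelial-like cells. In the oligodendrocyte-like cluster they ran from -0.63 to 0.38 for Psme1 (-0.11 with DESeq2 size factors), -0.27 to 0.16 for Psme2, -0.26 to 0.72 for B2m and -0.93 to 2.67 for Psmb8. In T or NK-like cells they ran from -0.32 to 0.059 for Tap1 and -0.33 to 0.0051 for Psmb10. The causes were not tested. Tap2 had too few UMIs for a test in any class, Nlrc5 in each of the 4 classes and Psmb8 in 2 of them, and the endothelial-like class rests on 37 to 71 infarction cells.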

Other observations

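Neutrophil-like cells were too few in 2 sham libraries for the main limit of 20 cells. Psmb9 in them had 315, 235 and 260 CPM in infarction against 1162, 756 and 594 CPM in sham, from 13, 44 and 12 sham cells, and Tap1 80.6, 62.1 and 76.8 CPM in infarction against 422, 161 and 44.0 CPM in sham. With a limit of 10 cells the log2 fold changes of infarction over sham were -1.32 ± 0.30 for Psmb9 and -1.03 ± 0.38 for Tap1 (SE). These were the members called, where 646 of 4714 genes were called higher and 314 lower. Others tested were not called, at -0.75 for Psme1, -0.66 for Tapbp, 0.28 for Psme2, 0.60 for Psmb10, 0.63 for B2m and 1.34 for Psmb8. The neutrophil-like cells of the 2 groups lay mostly in different clusters, led by Il1r2, G0s2 and Ifit3 in infarction and mostly by S100a8, Retnlg and Camp in sham. Fibroblast-like cells at the same limit gave log2 fold changes of 0.83 ± 0.26 for Tapbp and 0.66 ± 0.20 for Psmb10. Both were called, where 775 of 7076 genes were called higher and 934 lower. Not called were Tap1 (0.45), Psme2 (0.20), Psmb9 (0.17), Psme1 (0.08) and B2m (-0.35). Fibroblast-like cells numbered 14, 21 and 10 in the infarction libraries. Ependymal-like cells gave 0.50 ± 0.40 for B2m and -0.39 ± 0.82 for Psmb9, and no member was called in them.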
